A study of Mus musculus with 40 samples.

Results

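The transcripts of the mitochondrial genome were taken as every mouse gene whose symbol starts with mt-. This rule found 37 of the 39012 genes in the count table, all of them on chromosome M: 13 mRNAs, 2 rRNAs and 22 tRNAs. The 13 mRNAs and 2 rRNAs had counts in all 40 libraries and passed the filter on low counts in each fit. The 22 tRNAs were listed at 0 in each of the 40 libraries.

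Bulk RNA was sequenced from EMT-6 tumors, a mouse mammary carcinoma line grown in the mammary pad of female Balb/C mice aged 8 to 12 weeks, with 1 library per mouse. Mice were dosed intravenously on days 0, 1 and 2, starting 20 days after inoculation at a mean tumor volume near 400 mm3, and tumors were collected on day 6. Anti-PDL1/TGFβ Trap, called bifunctional here, was given at 492 µg. Anti-PDL1 (mut)/TGFβ Trap control, called trap control, carries the trap on a mutated antibody and was given at 492 µg. Anti-PDL1 was given at 400 µg, and the Inactive Anti-PD-L1 Isotype Control at 400 µg. Each group held 10 mice, and every mouse in every group received an antibody protein, so no group was untreated. PD-L1 dampens T cells through their receptor PD-1, and the cytokine TGFβ limits immune cells and promotes matrix deposition.

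Library numbers fell in 2 runs that differed in their RNA content, and the values below keep them apart. A run here is a stretch of library numbers, since the labels name no batch. The first run, C0449 to C0464, held the 10 isotype control libraries and 6 trap control libraries. The last run, C0465 to C0488, held 4 trap control, 10 anti-PD-L1 and 10 bifunctional libraries. Numbers also follow the groups inside each run, so a difference in handling along the numbers and a difference in treatment cannot be told apart. Libraries held 13495835 to 27658263 expected counts, the fewest being in trap control library C0464 of the first run. Vim and Krt8, genes the tumor line expresses, were detected in every library. Their lowest values, 845 and 57.8 CPM (counts per 1e+06 counts of the library), were both in trap control library C0459 of the first run. A sum over a bulk tumor cannot tell fewer cells of a type from less RNA per cell.

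Mitochondrial DNA is a small circle transcribed from both strands into long precursors, which are cut at the tRNAs into separate rRNAs, mRNAs and tRNAs. Its mRNAs encode core subunits of respiratory complexes I, III and IV and of the ATP synthase, and its rRNAs build the mitochondrial ribosome. All proteins that copy, transcribe, process and translate this genome come from nuclear genes. Tissues that respire strongly, such as heart and skeletal muscle, hold many mitochondria.

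Properties of the sequences limit what the counts measure, and the sequences that carry them are shown first (GENCODE M21, mm10, 5′ to 3′). The tRNAs are short, from 59 bases in mt-Ts2 (chrM:11613-11671, plus strand) to 75 bases in mt-Tl1 (chrM:2676-2750, plus strand), and 8 of the 22 lie on the minus strand. These are the shortest and the longest of them:
mt-Ts2: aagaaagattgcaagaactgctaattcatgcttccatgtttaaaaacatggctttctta
mt-Tl1: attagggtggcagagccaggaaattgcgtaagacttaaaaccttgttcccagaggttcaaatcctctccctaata
Of the 2133 genes of the table whose longest transcript is under 100 bases, 2132 were listed at 0 in all 40 libraries, and the shortest gene with any count had 85 bases. Nearly every gene as short as the tRNAs was thus listed at 0. A count of 0 allows up to 3 counts per library, which is at most 2.22e-05% of the counts, a limit for counting error only. Ratios of tRNA to mRNA or rRNA were not detectable in these data.

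mt-Nd4l encodes a small subunit of complex I (ENSMUSG00000065947, chrM:9877-10173, plus strand, 297 bases) and has a nuclear copy, Gm10222 (chr1:24612407-24612700, minus strand, 294 bases). All 294 bases of Gm10222 match mt-Nd4l, which goes on for 3 more bases, in capitals:
mt-Nd4l: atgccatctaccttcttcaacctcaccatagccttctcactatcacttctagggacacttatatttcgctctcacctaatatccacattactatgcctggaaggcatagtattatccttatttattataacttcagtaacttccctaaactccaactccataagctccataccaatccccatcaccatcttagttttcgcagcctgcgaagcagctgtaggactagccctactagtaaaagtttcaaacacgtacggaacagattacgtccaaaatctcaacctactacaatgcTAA
The table gave both genes the same count in each of the 40 libraries, with 37 to 788.5 counts apiece. Reads of the 2 loci cannot be told apart, so the level of mt-Nd4l is uncertain, and its fold change is that of the pair. The other nuclear copies in the table were low, with at most 9.24 counts for Gm13340, 5.22 for Gm13341 and 0 for Gm13339. Of 10 nuclear copies looked for, only 4 were in the table, so reads of the rest could not be assessed for any member.

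Members also overlap on the genome. mt-Atp8 (ENSMUSG00000064356, chrM:7766-7969, plus strand, 204 bases), a short subunit of the ATP synthase, shares its last 43 bases, in capitals, with the start of mt-Atp6:
mt-Atp8: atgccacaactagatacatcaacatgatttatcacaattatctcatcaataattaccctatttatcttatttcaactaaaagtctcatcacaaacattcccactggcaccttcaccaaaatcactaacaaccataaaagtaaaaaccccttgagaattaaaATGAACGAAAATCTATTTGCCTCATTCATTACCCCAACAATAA
mt-Nd4l and mt-Nd4 share 7 bases, and mt-Nd5 and mt-Nd6 share 14 bases on opposite strands. The strand used in counting is not given in the sources used here, so reads of mt-Nd6 and of its antisense side cannot be told apart either.

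Most mitochondrial counts came from the 2 rRNAs, and the share they took differed between the runs. The libraries were made after ribosomal depletion, so rRNA counts are what was left after that step. How far it removed the mitochondrial rRNAs in each library was not tested. In the last run the rRNAs took 6.14%, 8.47% and 11.9% of counts (lowest, median and highest) in bifunctional libraries. They took 11.3%, 9.75%, 6.78% and 7.10% in the 4 trap control libraries, and 6.17%, 7.93% and 8.38% in anti-PD-L1 libraries. The 3 groups of the last run overlapped. In the first run the share was 16.8%, 23.7% and 43.3% in 6 trap control libraries, against 18.7%, 27.6% and 38.2% in isotype control libraries. No library of the first run overlapped with the last run, and the trap control group, the one group in both, showed the same gap.

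The 13 mRNAs took far less. Their share was 0.387%, 0.563% and 0.787% of counts in bifunctional libraries. It was 0.690%, 0.638%, 0.50% and 0.530% in the 4 trap control libraries of the last run, and 0.465%, 0.522% and 0.632% in anti-PD-L1 libraries. In the first run it was 1.01%, 1.39% and 2.15% in trap control libraries, against 1.07%, 1.76% and 2.19% in isotype control libraries. The mRNA share was thus also higher in every library of the first run than in any of the last. 7SL RNA, the cytosolic RNA of the signal recognition particle, moved with it and took 12.9% to 23.8% of counts in the first run and 5.06% to 8.84% in the last. With 7SL RNA and the mitochondrial rRNAs left out of the total, the mRNA share was still 1.5% to 5.71% in the first run and 0.451% to 0.948% in the last.

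**Figure D1:**
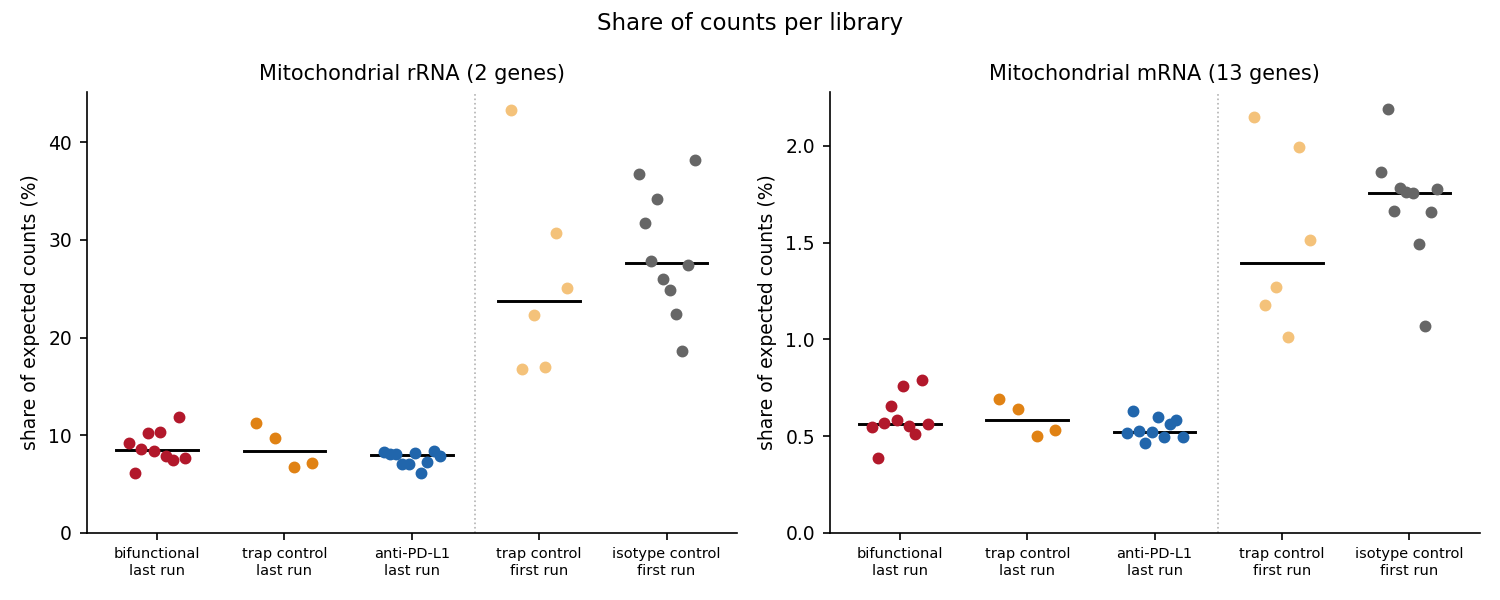
Share of expected counts (%, y axis) taken by the 2 mitochondrial rRNAs (left) and the 13 mitochondrial mRNAs (right) in each of the 40 libraries, 1 point per library with the group median as a bar. Libraries of the first run, right of the dotted line, lie above all those of the last run, at 16.8% to 43.3% against 6.14% to 11.9% for rRNA.

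The balance between rRNA and mRNA counts, as left after ribosomal depletion, differed less than either share. Per mRNA count there were 13.6, 14.9 and 16.9 rRNA counts in bifunctional libraries and 12.5, 14.1 and 16 in anti-PD-L1 libraries. Trap control libraries had 13.4 to 16.3 in the last run and 14.2 to 20.1 in the first, and isotype control libraries 14.2 to 21.5. All 5 ranges overlapped. The ratio of the large rRNA, mt-Rnr2, to the small one, mt-Rnr1, did separate the runs. It was 3.68 to 5.12 in the 16 libraries of the first run and 5.45 to 10.4 in the 24 of the last, since the share of mt-Rnr1 differed more between runs than that of mt-Rnr2.

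Levels between genes were compared as TPM, which divides by transcript length. For the rRNAs these are levels left after ribosomal depletion. mt-Rnr2 had the highest median in both runs and mt-Rnr1 the next, followed by mt-Co3, mt-Co1 and mt-Co2, subunits of cytochrome c oxidase (complex IV). In bifunctional libraries the median TPM was 777 for mt-Co3 and 705 for mt-Co1, and mt-Co2 ran from 231 to 791. The ATP synthase genes followed with 280 for mt-Atp8 and 212 for mt-Atp6. The complex I gene mt-Nd3 had 191, mt-Nd1 116, mt-Nd4 38.9, mt-Nd5 33.2, mt-Nd2 28.3, mt-Nd6 19.5 and mt-Nd4l 16.2, while mt-Cytb of complex III had 65.7. As the table splits its reads with Gm10222, mt-Nd4l was the lowest of the 15 in both runs, next to mt-Nd6, the one mRNA on the minus strand. The place of mt-Nd4l in this order, against mt-Nd6 and also against mt-Nd2, rests on that split. Ranges over libraries overlapped between most neighbours in this order, such as mt-Co3 and mt-Co1 (430 to 1224 and 364 to 1173 in bifunctional libraries).

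**Figure D2:**
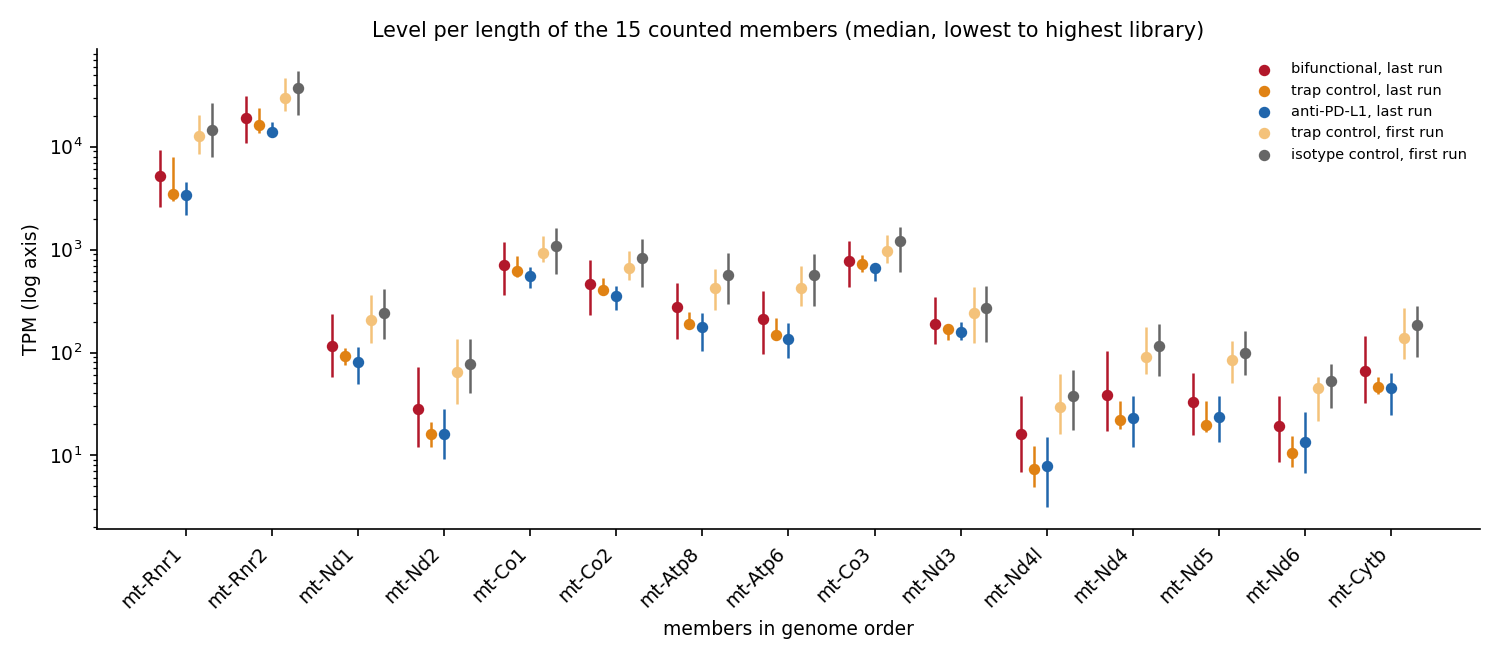
Level per length (TPM, log axis) of the 2 rRNAs and 13 mRNAs in genome order, with the median of each group as a point and its lowest to highest library as a line. Libraries of the first run are higher for each member by median, and the order of the members has mt-Rnr2 at the top in both runs, with mt-Nd4l (as split with Gm10222) and mt-Nd6 at the bottom.

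The runs did not differ by the same factor for all members. Within the trap control group, the median share of counts in the 6 libraries of the first run over that in the 4 of the last was 1.99 for mt-Co3, 2.07 for mt-Co1, 2.21 for mt-Nd3 and 2.26 for mt-Co2. It was 2.54 for mt-Rnr2, 3.17 for mt-Nd1, 4.10 for mt-Atp6, 4.34 for mt-Cytb and 4.56 for mt-Atp8. The highest ratios were those of mt-Rnr1 (5.10), mt-Nd2 (5.53), mt-Nd5 (5.67), mt-Nd4 (5.70), mt-Nd6 (6.37) and mt-Nd4l (6.68). None of the 15 members overlapped between the runs. The same count was not made over all genes, so this does not set the members apart from other genes. The complex IV mRNAs and mt-Nd3 thus stood lowest in this ratio and the other complex I mRNAs, mt-Nd1 apart, highest, and no test was made between runs.

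The make-up of the mRNA pool shifted accordingly. The complex IV genes held 72.0%, 79.9% and 85.3% of mitochondrial mRNA counts in bifunctional libraries. They held 81.1% to 85.9% in trap control libraries of the last run and 78.4%, 81.4% and 86.9% in anti-PD-L1 libraries. In the first run they held 66.6%, 70.9% and 75.8% in trap control libraries and 67.2%, 69.5% and 77.3% in isotype control libraries. The 7 complex I genes held 7.82%, 11.9% and 17% in bifunctional libraries, 7.75% to 11.2% in trap control and 7.62%, 10.9% and 13.2% in anti-PD-L1 libraries of the last run. In the first run they held 13.7%, 16.7% and 19.7% with the trap control and 11.4%, 17.4% and 19.1% with the isotype control. The groups of a run overlapped in each of these shares. mt-Co1 was the largest part of the pool throughout, at a median of 39.4% in the first run and 46.4% in the last.

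In 3 libraries skeletal muscle markers were high. They held over 1000 CPM summed over 9 such markers, while the other 37 held at most 382. These were C0484 and C0479 of the bifunctional group, at 4492 and 2183 CPM, and C0463 of the trap control group, at 5888 CPM. C0484 had the lowest complex IV share of the last run, 72.0%. C0463 had the lowest of the first, 66.6%, just under the 67.2% that was lowest among the other 15 libraries of that run. C0449, next in muscle markers in the first run at 78.5 CPM, had 75.9%. C0479 was at 76.8%, just under the 77.2% that was lowest among the other 22 libraries of the last run. C0484 and C0463 also had the highest complex I and mt-Cytb shares of their runs, with 4.33% and 5.50% for mt-Cytb. The part of muscle RNA in these shares was not tested beyond the fits without these libraries given below.

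**Figure D3:**
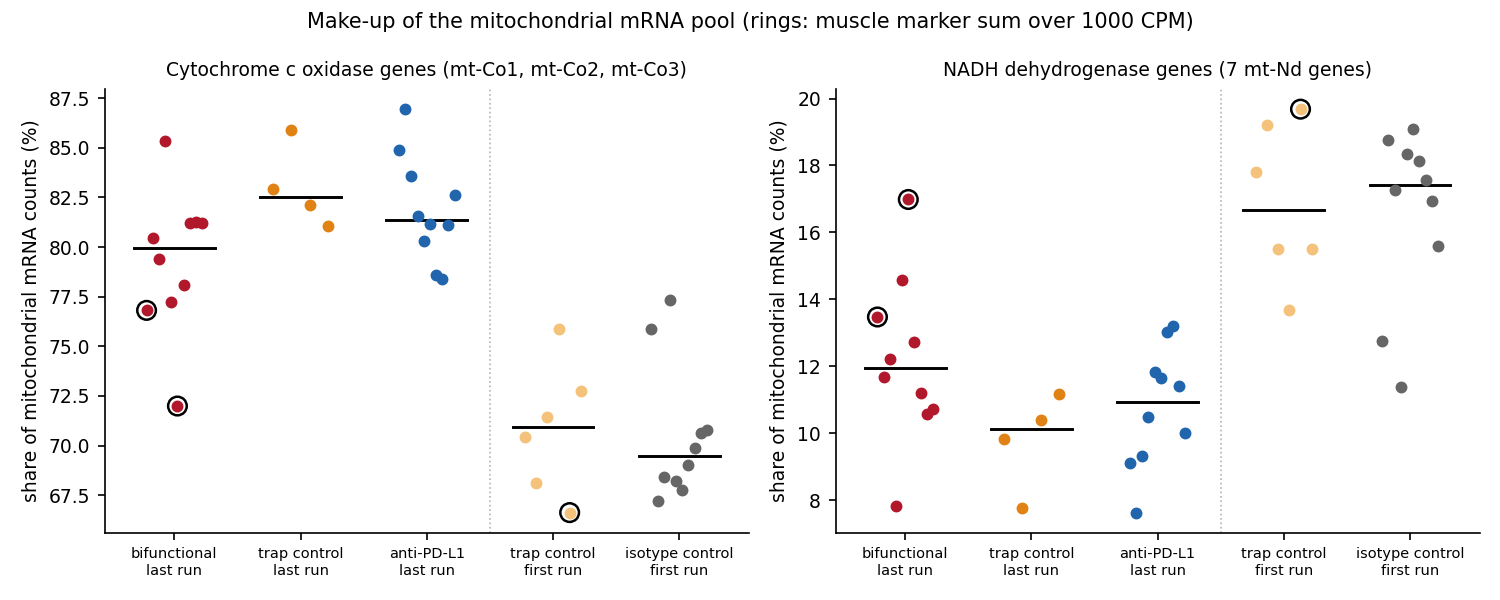
Share of mitochondrial mRNA counts (%, y axis, not from 0) held by the 3 complex IV genes (left) and the 7 complex I genes (right), 1 point per library with the group median as a bar. Ringed points are the 3 libraries with over 1000 CPM of muscle markers, which lie at the low end for complex IV, 66.6% to 76.8%.

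Bifunctional against anti-PD-L1, 2 groups of the last run, addresses the effect of the trap where PD-L1 is also blocked. Levels from here are CPM scaled by TMM, a factor per library that offsets its composition, and tests are edgeR's quasi-likelihood F test adjusted over all genes at 0.05. Of the 15 members tested 3 rose and 0 fell, and 13 had a fold change above 0. The rises were in mt-Nd4l with its nuclear copy, mt-Nd4 and mt-Atp8. The median log2 fold change was 0.25 over the 15 members and 0.01 over all genes. Of the 15704 genes tested 25.6% were called, 12.4% as higher, so 3 of 15 does not set the members apart from other genes. The split of all calls, 1951 higher and 2063 lower, depended on the setting, with 2177 and 1688 after DESeq2 size factors in edgeR, 2468 and 1973 in DESeq2, 2401 and 1533 with all 40 libraries, and 3043 and 43 in limma on log2(TPM + 1). At an unadjusted p under 0.05 there were 7 of 15 members and 6390 of 15704 genes, so this count does not set the members apart either.

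mt-Atp8 had 20.3, 29.1 and 39.8 CPM in bifunctional libraries, against 16.8, 22.2 and 25.7 CPM in anti-PD-L1 libraries. Of the bifunctional libraries 9 of 10 were above the median with anti-PD-L1 and 7 above its highest library, so the groups overlapped in the rest. Its log2 fold change was 0.43 (edgeR SE 0.111, adjusted p = 0.0119). mt-Atp6, the proton channel subunit of the ATP synthase that overlaps it, had 172, 273 and 425 CPM in bifunctional and 200, 226 and 267 CPM in anti-PD-L1 libraries. Its difference of 0.33 (SE 0.123, edgeR adjusted p = 0.0526) did not pass, although 7 bifunctional libraries lay above the highest anti-PD-L1 library. It passed under DESeq2 (adjusted p = 0.0262), with DESeq2 size factors in edgeR (0.0423) and with the rRNAs and 7SL RNA left out (0.0426).

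The complex I genes spread widely. mt-Nd4l had 3.11, 4.69 and 9.52 CPM in bifunctional libraries, against 1.58, 3.01 and 4.76 CPM in anti-PD-L1 libraries. Each of the 10 bifunctional values exceeded the median with anti-PD-L1, 5 of them its highest value, and C0484 was highest by far, ahead of 6.61 CPM in the next. It rose by 0.73 (SE 0.215, edgeR adjusted p = 0.0196), and Gm10222, which was given the same counts, had the same fold change. mt-Nd4 had 73.0, 120.2 and 264 CPM in bifunctional libraries, against 65.5, 88.6 and 127 CPM in anti-PD-L1 libraries. The library at 264 CPM was again C0484, the next being 174 CPM, and 8 of 10 lay above the anti-PD-L1 median. mt-Nd4 rose by 0.53 (SE 0.185, edgeR adjusted p = 0.0397).

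The other members did not pass. mt-Nd2 differed by 0.45 (SE 0.181, edgeR adjusted p = 0.0694), mt-Nd1 by 0.25 (adjusted p = 0.114), mt-Nd6 by 0.20 (0.452), mt-Nd5 by 0.19 (0.373) and mt-Nd3 by -0.0014 (0.992). mt-Cytb, the one mitochondrial gene of complex III, had 109, 163 and 300.3 CPM in bifunctional and 109, 145 and 170 CPM in anti-PD-L1 libraries, a difference of 0.30 (SE 0.133, edgeR adjusted p = 0.099). The complex IV genes lay near 0, with 0.13 for mt-Co2 (edgeR adjusted p = 0.388), 0.06 for mt-Co1 (0.766) and -0.03 for mt-Co3 (0.870). The signs of mt-Co3 and mt-Nd3 changed under several other settings, that of mt-Nd3 also with DESeq2 size factors in edgeR. Of the rRNAs mt-Rnr1 differed by 0.33 (SE 0.171, edgeR adjusted p = 0.146) and mt-Rnr2 by 0.14 (SE 0.129, adjusted p = 0.442). Every member overlapped between the groups.

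The calls depended on 2 bifunctional libraries with much muscle RNA. Of the 9 muscle markers 8 rose in bifunctional tumors, and their sum was 0.881, 7.89 and 4492 CPM there, against 1.10, 1.4 and 277 CPM with anti-PD-L1. Without C0479 and C0484, 0 of 15 members were called and 4 had an unadjusted p under 0.05. Over all genes 3878 of 15480 had such a p, and 290 were called higher and 470 lower. mt-Atp8 was then at 0.37 (edgeR adjusted p = 0.0518), mt-Nd4l at 0.53 (0.109) and mt-Nd4 at 0.32 (0.198), and 14 of 15 members were still above 0. With a muscle score as a covariate 0 were called as well. The edgeR adjusted p was then 0.0584 for mt-Atp8, 0.122 for mt-Nd4l and 0.257 for mt-Nd4. Over all genes that fit called 196 higher and 539 lower of 15704, in place of 1951 and 2063. The loss of calls was thus not particular to the members. Leaving out single libraries gave 2 to 7 calls, the 7 without C0480. Over all genes 1976 of 15680 were called higher without C0480. Without C0484, where 2 members were called, 1035 of 15593 were called higher. mt-Nd4 lost its call without any 1 of C0469, C0470, C0471, C0472, C0479, C0484 and C0487, at folds of 0.37 to 0.51, while mt-Atp8 and mt-Nd4l stayed called in all 20 such fits.

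Markers of other host cells differed between these groups too, where 12.4% of all genes were called higher and 13.1% lower. Of the adipocyte markers 3 of 7 tested rose (of 9 listed), with sums of 3.39, 42.2 and 1000.4 CPM in bifunctional and 13.8, 29.5 and 102 CPM in anti-PD-L1 libraries. Ucp1, which defines brown fat and its dense mitochondria, had a median of 0 CPM in both groups and at most 0.0427 CPM in bifunctional libraries. Both keratinocyte markers tested rose, with a sum of 2217 CPM in C0479 and 27.3 CPM in C0484, the next highest bifunctional library. The highest adipocyte sum was also in C0484. Of the macrophage markers 5 of 6 rose (544, 878 and 1281 CPM, against 425, 633 and 801 CPM with anti-PD-L1). All 6 T cell markers rose (3.21, 4.80 and 8.14 CPM, against 1.17, 2.11 and 3.04 CPM). Of the proliferation genes 6 of 8 fell, and of the 4 genes of the tumor line Krt8 fell by 0.59 (SE 0.160, edgeR adjusted p = 0.0143). The part of the mix of cells in the members' values was not tested beyond the fits above.

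**Figure D4:**
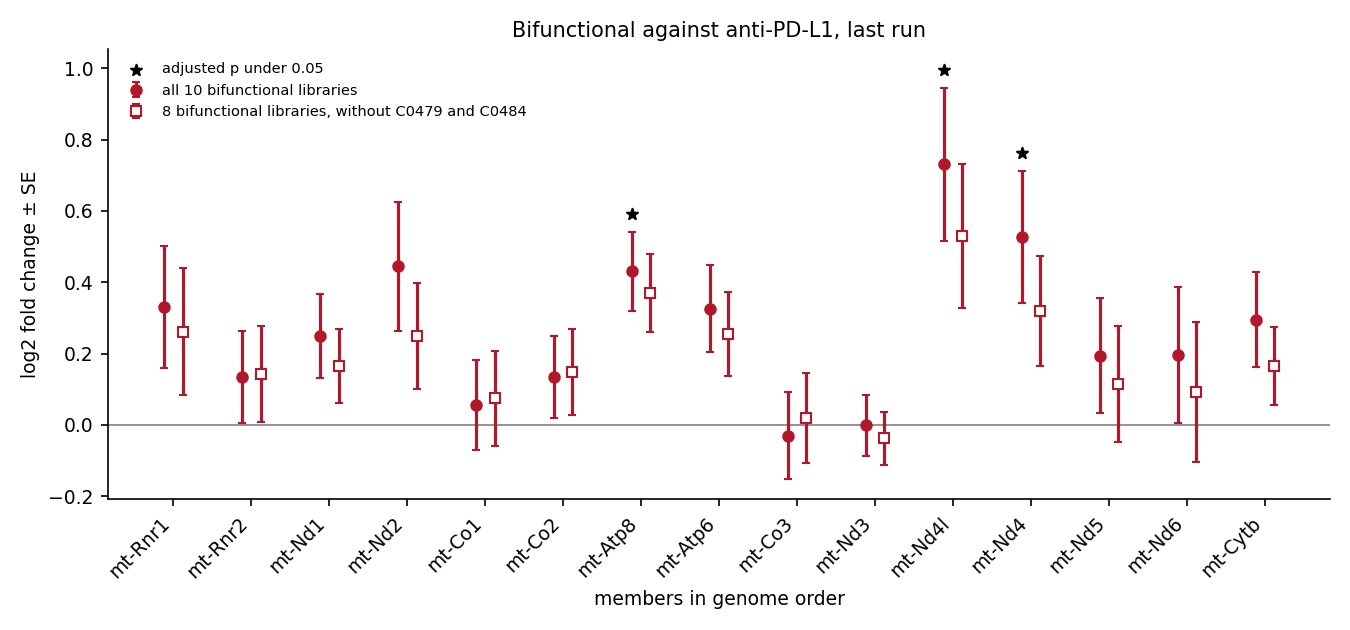
Log2 fold change of bifunctional over anti-PD-L1 (edgeR, ± SE) for the 15 counted members in genome order, with all 10 bifunctional libraries (filled) and without the 2 with most muscle RNA (open). Stars mark the 3 members with adjusted p under 0.05 in the full set, mt-Atp8, mt-Nd4l and mt-Nd4, and none was called in the smaller set.

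Nuclear genes for the mitochondrion did not rise with these members. Of 34 nuclear-encoded subunits of the respiratory chain 0 rose and 23 fell, with a median log2 fold change of -0.24 and 33 of 34 below 0, where 13.1% of all genes were called lower. On log2(TPM + 1) in limma 0 of 34 fell and the median was 0.06, a scale on which the median of all genes was itself 0.15. Only 43 of 15704 genes were called lower on that scale, so 0 falls there cannot decide whether a list fell. Ndufs1 (-0.27, edgeR adjusted p = 0.00553), Ndufv1 (-0.28, 0.00977) and Ndufs8 (-0.35, 0.0145), iron-sulfur or flavin subunits of the arm of complex I that oxidises NADH, were among those that fell. Cycs, the electron carrier cytochrome c, fell by 0.39 (edgeR adjusted p = 0.00873). Of 38 mitochondrial ribosomal proteins 0 rose and 23 fell (median -0.24), with Mrpl18 (-0.35, edgeR adjusted p = 0.00613), Mrpl21 (-0.38), Mrpl22 (-0.48) and Mrpl20 (-0.36) having the lowest p. On log2(TPM + 1) 0 of 38 fell, with the same limit.

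Of 33 tested genes for mitochondrial RNA processing and stability 0 rose and 14 fell (median -0.20). Among them were Lrpprc, which stabilises mitochondrial mRNAs (-0.35, edgeR adjusted p = 0.00822), Supv3l1, a helicase of the RNA degrading complex (-0.28, 0.00887), Rexo2, an exonuclease of short RNAs (-0.35, 0.00529), and Ptcd3, a ribosome-associated protein (-0.45, 0.00678). Of 17 genes for transcription and upkeep of the mitochondrial genome 2 fell, a share no higher than the 13.1% of all genes called lower, and all 17 were below 0 (median -0.16). The 2 were Tfam, which packs mitochondrial DNA and starts its transcription (-0.25, edgeR adjusted p = 0.0216), and Ssbp1, which binds its single strands (-0.25, 0.0200). Of 8 tested regulators of mitochondrial biogenesis 2 fell, Nrf1 (-0.19, 0.0200) and Gabpb1 (-0.15, 0.0377). Without C0479 and C0484 the counts that fell were 2 of 34, 3 of 38, 4 of 33 and 0 of 17 for these lists in turn, leaving out the regulators, where 470 of 15480 genes were called lower. On log2(TPM + 1) 0 fell in any of the 4, where limma called only 43 of 15704 genes lower.

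**Figure D5:**
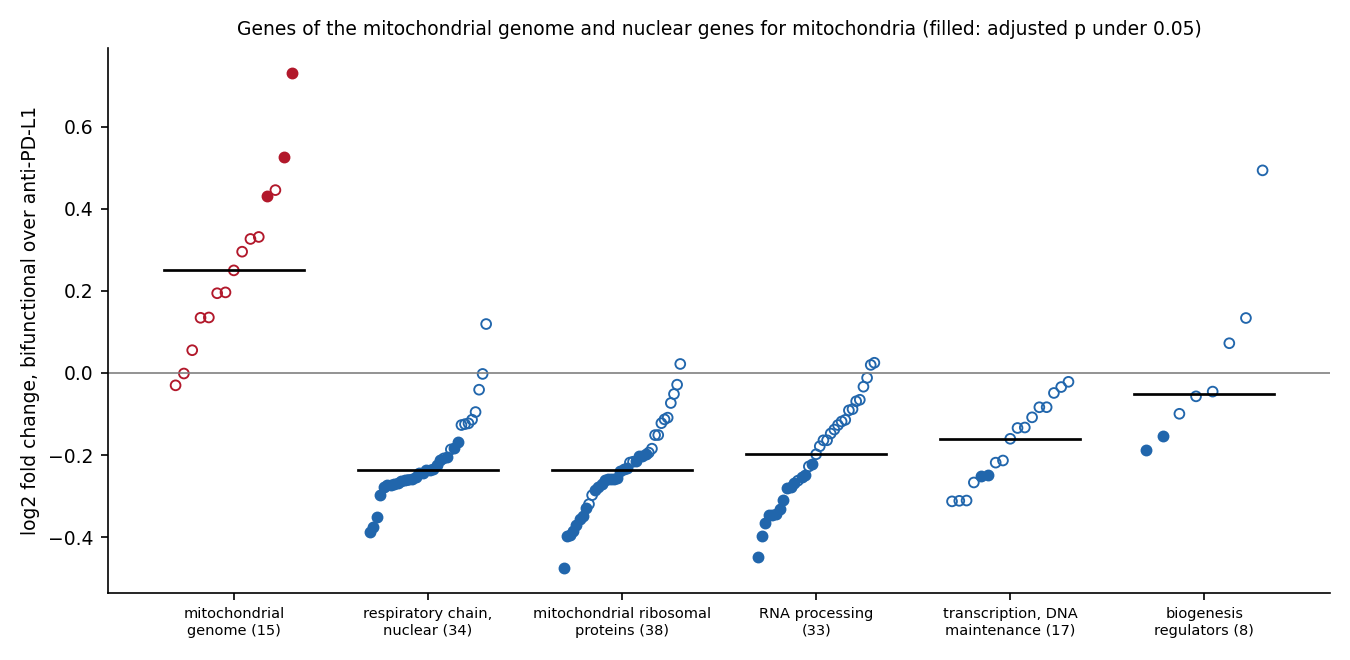
Log2 fold change of bifunctional over anti-PD-L1 (edgeR, y axis) for the 15 counted members and 5 lists of nuclear genes for mitochondria, 1 point per gene in rising order with the median as a bar, filled where adjusted p was under 0.05. The median was 0.25 for the members and -0.24 for nuclear respiratory chain subunits.

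In bifunctional against trap control, which differ in PD-L1 binding, 0 of 15 members were called, where edgeR called 1 of 15704 genes (0.00637%). At an unadjusted p under 0.05 there were 5 members and 2427 of the 15704 genes. DESeq2 called 0 of the 14 members to which it gave an adjusted p. mt-Nd4l had 3.11, 4.69 and 9.52 CPM in bifunctional libraries and 4.10, 2.12, 2.13 and 2.99 CPM in the 4 trap control libraries, a difference of 0.86 (SE 0.297, edgeR adjusted p = 0.207). All 10 bifunctional libraries lay above the trap control median. mt-Nd6 had 10.4, 17.2 and 27.3 CPM in bifunctional libraries and 14.8, 9.79, 9.07 and 12.5 CPM in trap control libraries, a difference of 0.61 (SE 0.262, adjusted p = 0.284). mt-Nd2 differed by 0.58, mt-Nd4 by 0.52 and mt-Atp8 by 0.35 (edgeR adjusted p from 0.283 to 0.323). mt-Co1 and mt-Co3 were at -0.11 and -0.15. The nuclear lists also had 0 calls, with medians of -0.14 for the respiratory chain and -0.16 for ribosomal proteins. Without C0479 and C0484 1 member had an unadjusted p under 0.05, where 1491 of 15480 genes had one.

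In trap control against anti-PD-L1, within the last run, 0 of 15 members were called, where edgeR called 2 genes (0.0127%). The members ran from -0.41 for mt-Nd6 (SE 0.260, edgeR adjusted p = 0.979) to 0.29 for mt-Rnr1 (SE 0.223, adjusted p = 0.979), and 0 had an unadjusted p under 0.05. Over all genes 772 of 15704 had such a p. DESeq2 called 0 members. With 4 trap control libraries the SE of a member's fold change was 0.114 to 0.288, and differences larger than these SE values, such as that of mt-Nd6, did not pass either.

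In trap control against isotype control, within the first run, 0 of 15 members were called, and 0 had an unadjusted p under 0.05 (DESeq2 called 0), where 7.34% of 14183 genes were called, 3.19% higher and 4.15% lower. Over all genes 3718 had such an unadjusted p. Fold changes ran from -0.16 for mt-Atp8 (SE 0.306, edgeR adjusted p = 0.774) to 0.19 for mt-Nd1 (SE 0.335, adjusted p = 0.755). mt-Co1 had 3147, 5564 and 15241 CPM in 6 trap control libraries and 3666, 6100 and 11095 CPM in isotype control libraries. mt-Atp8 had 42.5, 95.1 and 257 CPM, against 76.0, 129 and 204 CPM. On this scale the highest trap control library was C0459 for each of the 15 members, and it lay above all isotype control libraries in each. Its TMM factor, 0.555, was the lowest of the run and raised its CPM. In TPM the highest trap control library lay below the highest isotype control library for each member, as for mt-Co1 (1348 against 1607) and mt-Rnr2 (46582 against 54212). Without C0459 all 15 members were below 0, with a median of -0.43 in place of -0.02, and still 0 were called. Without the muscle-rich C0463 the median was -0.13, with 1 of 15 above 0 and 0 called. C0459 also had the highest rRNA share of all libraries, 43.3%.

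Among the nuclear lists in that comparison, 3 of 17 genes for transcription and upkeep rose and 2 fell, where 3.19% of all genes were called higher and 4.15% lower. Twnk, the helicase that unwinds mitochondrial DNA, rose by 0.28 (edgeR adjusted p = 0.0405), and Top1mt, its topoisomerase, by 0.33 (0.0453). Primpol, a primase, fell by 0.53 (0.0174), and Mterf3, a regulator of transcription, by 0.38 (0.0194). Of 33 RNA processing genes 4 fell: Fastkd2 (-0.47), Trnt1, which adds CCA to tRNAs (-0.43), Trmt10c, a subunit of the enzyme that cuts tRNA ends (-0.41), and Lactb2 (-0.44), with edgeR adjusted p from 0.0199 to 0.0418. Esrra, a regulator of biogenesis, rose by 0.31 (0.0470). Fold changes in this comparison followed the GC content of the transcripts (Spearman rho 0.575 over 13978 genes). With that trend removed, 0 of 17 and 0 of 33 were called, and 14 genes in the whole table in place of 1041.

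Comparisons of the last run's groups with isotype control cross the runs and use the run as a term set by the trap control group alone. In bifunctional against isotype control 0 of 15 members were called (0 by DESeq2), where 2.55% of 15183 genes were, 0.909% higher and 1.64% lower, and fold changes ran from -0.18 for mt-Co3 to 0.88 for mt-Nd4l (SE 0.464, edgeR adjusted p = 0.270). In anti-PD-L1 against isotype control 0 were called (0 by DESeq2), where 0.0132% of genes were, 0.00659% in each direction, with -0.36 for mt-Rnr1 to 0.33 for mt-Nd6 (SE 0.423, edgeR adjusted p = 0.810). Both had 0 members at an unadjusted p under 0.05, where 3246 and 1525 of 15183 genes had one. With the GC trend removed 6 members had such a p in bifunctional against isotype control, where 2434 of 14964 genes did. In that fit 0 members were called. Of the nuclear lists in bifunctional against isotype control, Tfam (-0.53, edgeR adjusted p = 0.0362) and Mterf3 (-0.50, 0.0474) fell of 17, and Trnt1 (-0.77, 0.0147), Trmt10c (-0.56, 0.0317) and Fastkd2 (-0.65, 0.0430) fell of 33. Over all genes 1.64% were called lower, and fold changes again followed GC content (Spearman rho 0.359 over 14964 genes). With that trend removed 1 gene was called higher and 9 lower in the whole table, in place of 138 and 249, and without C0479 and C0484 15 and 32. The 2 comparisons share the isotype control and trap control libraries.

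Whether the trap's effect differed with and without PD-L1 blockade was tested as bifunctional minus anti-PD-L1, less trap control minus isotype control, each within a run. 0 of 15 members were called, and 0 had an unadjusted p under 0.05 (DESeq2 called 0), where 7.91% of 16174 genes were called, 3.96% higher. Over all genes 4355 had such an unadjusted p. The unadjusted count depended on the setting, with 2 members in DESeq2 and 13 in limma on log2(TPM + 1). On that scale 3351 of all genes had such a p, the median of all genes was 0.14, and 0 members were called. mt-Nd4l was at 0.79 (SE 0.394, edgeR adjusted p = 0.188) and mt-Atp8 at 0.63 (SE 0.310, adjusted p = 0.186). With the GC trend removed mt-Atp8 turned to -0.12 (edgeR adjusted p = 0.851) and mt-Nd4l was at 0.52 (0.425). Of nuclear respiratory chain subunits 7 of 34 were called lower, among them Ndufs7 of complex I (-0.47, edgeR adjusted p = 0.00901) and Cox4i1 of complex IV (-0.46, 0.0190), where 3.95% of genes were called lower. The count was 2 of 34 with the GC trend removed, 1 of 34 without C0479 and C0484 and 0 of 34 in limma on log2(TPM + 1). Over all genes the calls were then 166 higher and 293 lower with the GC trend removed and 226 and 296 without those libraries, in place of 640 and 639. In limma on log2(TPM + 1) they were 51 and 8.

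Ratios between 2 members of the same library do not depend on library scaling. Testing 6 pairs in the 4 comparisons within a run gave 24 permutation tests, and 0 passed after Benjamini-Hochberg adjustment. In bifunctional against trap control mt-Atp8 per mt-Atp6 was 0.0935, 0.0995 and 0.121 in bifunctional libraries and 0.0867 to 0.0959 in trap control libraries, a log2 difference of 0.19 (SE 0.0520, exact permutation p = 0.00599, adjusted p = 0.0719). mt-Nd6 per mt-Nd5, genes of opposite strands, was 0.104, 0.116 and 0.133 in bifunctional and 0.0913 to 0.107 in trap control libraries, a difference of 0.26 (SE 0.0700, exact permutation p = 0.00599, adjusted p = 0.0719). In both pairs 10 of 10 bifunctional libraries lay above the trap control median. Against anti-PD-L1 the mt-Atp8 to mt-Atp6 difference was 0.13 (permutation p = 0.0209, adjusted p = 0.132, 10 of 10 above the median). mt-Nd6 per mt-Nd5 differed by 0.014 from anti-PD-L1 (permutation adjusted p = 0.871). mt-Rnr2 per mt-Rnr1 differed by -0.17 (SE 0.103, permutation adjusted p = 0.326) in bifunctional against anti-PD-L1, with 6.84 and 7.49 as medians. In trap control against isotype control the 6 differences ran from -0.11 to 0.05 (exact permutation adjusted p from 0.481 to 0.871).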

How the data were processed

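RNA of 40 tumors (4 groups of 10) was sequenced after ribosomal depletion with random priming, per the labels' protocols. RSEM 1.2.31, Bowtie2 2.3.1 and the build mm10 are listed, per the submitters' processing notes, with no role or order. The annotation release, strand and trimming are not given in the sources used here. The authors deposited expected counts and TPM for 39012 genes. Expected counts split reads among genes that share them, and 14.0% of values were not whole, so counts were rounded for the fits. Symbols, coordinates and sequences came from GENCODE M21, which matched 37607 IDs (96.4%).

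Genes were tested with edgeR 4.0.16 (R 4.3.3) by its two-sided quasi-likelihood F test after TMM scaling and the default low count filter by group, with Benjamini-Hochberg adjustment over all genes tested and a threshold of 0.05. The last run (24 libraries) and the first (16) were fitted apart. Comparisons across runs used all 40 with the run as a term. SE values were derived from the fold change and F. Ratios of counts, plus 0.5, were compared by two-sided permutation tests, exact where a group had under 10 libraries and with 100000 resamples otherwise. Alternatives used DESeq2 1.42.0 and limma 3.58.1. Python 3.11.15, numpy 2.4.6, scipy 1.17.1, pandas 2.3.3 and matplotlib 3.10.9 did the rest. The fit was tested on simulated data with known changes. No 2 libraries of a group and run were duplicates (lowest chi-square per degree of freedom 8.91 over 156 pairs). P-values measure the spread between mice, 1 library each.

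Shares of counts by class are descriptions with no test, since the runs were known to differ. The members and gene lists were chosen with earlier results of these data known. All members could be named, and up to 4 called genes of each other list per comparison, by smallest adjusted p. The 3 libraries with over 1000 CPM of muscle markers were picked out after their values were seen. Intervals and limits for counts of 0 cover counting error only.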

Additional observations from a re-analysis of the deposited data

Results flagged for a closer look

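In 45 sets of values of 4 to 10 libraries of a group and run, the distance of the most extreme library from the rest was compared with the range, and 4 stood apart, where chance gives about 1 in 20. mt-Rnr2 per mt-Rnr1 was 10.3 in bifunctional library C0486, while the other 9 bifunctional libraries lay between 5.45 and 7.73. The same ratio was 5.118 in trap control library C0460 of the first run, above 4.11 to 4.48 in the other 5. mt-Nd6 per mt-Nd5 was 0.1302 in isotype control library C0449, above 0.0965 to 0.112 in the other 9. mt-Atp8 per mt-Atp6 was 0.1064 in trap control library C0464, the library with the lowest total count (13495835), above 0.0844 to 0.0915 in the other 5.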

How the results depend on the processing

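In bifunctional against anti-PD-L1, 3 members were called. The count was 5 with the DESeq2 Wald test, 5 with limma on log2(TPM + 1) and 5 on log2(TPM + 0.1), scales on which the median of all genes was 0.15 and 0.27. It was 1 (mt-Nd4l) with all 40 libraries and the run as a term, 0 with the muscle covariate and 0 without C0479 and C0484. It was 2 to 4 with DESeq2 size factors, either filter, the rRNAs and 7SL RNA left out, GC trend removed or only the groups compared, and 2 to 7 leaving out 1 library. GC trend removal was chosen after seeing the data.

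In the other 6 comparisons 0 members were called in each setting run. Leaving out 1 library was run for the 4 comparisons within a run.

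In bifunctional against anti-PD-L1 the signs of 3 values near 0 changed. mt-Co3 (main -0.03) was 0.015 with the 1 CPM filter, 0.24 and 0.24 on the TPM scales, 0.0401 with the muscle covariate, 0.000613 with the GC trend removed, 0.00367 with all 40 libraries and 0.0197 without C0479 and C0484. mt-Nd3 (main -0.0014) was 0.0248 with DESeq2 size factors, 0.0498 with the 1 CPM filter, 0.0249 with DESeq2, 0.246 and 0.247 on the TPM scales, 0.0259 with the rRNAs and 7SL RNA left out, 0.0389 with all 40 libraries and 0.0224 with only the groups compared. The log2 ratio of mt-Nd6 to mt-Nd5 (main 0.014) was -0.0058 from TPM and -0.00999 without C0479 and C0484. A larger value also turned: mt-Atp8 in the test of the trap's effect with against without blockade was -0.12 with the GC trend removed, in place of 0.63. The cause was not tested. The nuclear lists that fell varied with single libraries, from 8 (without C0484) to 26 of 34 respiratory chain subunits and from 13 (without C0479 or C0484) to 24 of 38 ribosomal proteins. Calls over all genes varied too, with 1137 lower without C0484 and 1323 without C0479, in place of 2063. These drops are thus not shown to be particular to the lists.

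No paired analysis was possible because the labels give each library its own number, shared by no other group.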

Other observations

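Across the 13 mitochondrial mRNAs, the ratio between runs in the trap control group and the log2 fold change of bifunctional over anti-PD-L1 had a Spearman rho of 0.764. The points are genes of the same libraries, several of which overlap, and the 2 measures come from different libraries. mt-Nd4l, mt-Nd4 and mt-Nd2 were high in both (6.68, 5.70 and 5.53 between runs, log2 fold changes of 0.73, 0.53 and 0.45), and mt-Co3 and mt-Co1 low in both. mt-Nd6 and mt-Nd5 did not follow, at 6.37 and 5.67 between runs with log2 fold changes of only 0.20 and 0.19. The ratio between runs had a rho of -0.198 with GC content and -0.104 with length, and the fold change had a rho of -0.0989 with GC content. These are descriptions over 13 genes that are not independent.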
